A study of Mus musculus with 6 samples.

Results

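Interleukin 4 (IL-4) and interleukin 13 (IL-13), the type 2 cytokines that basophils are known to secrete, are encoded by neighbouring genes on mouse chromosome 11. The genes described here are Il4, Il13 and Il5, the genes Rad50 and Kif3a that lie between and beside them, and Il9, a type 2 cytokine gene on chromosome 13. They were taken from the table by gene symbol. Of these 6 genes, 5 had a row among the 37043 symbols of the table, and Il9 was not analysed here. RNA was measured in bone marrow-derived basophils (BMBAs), which are basophils grown in culture from bone marrow. The bone marrow of wild-type C57BL/6J mice was grown for 7 days with 0.3 ng/mL of a cytokine, named as IL-3 in the study's methods, and basophils were enriched with beads against the surface protein CD49b. The BMBAs then received PBS or 10 ng/mL IL-3 for 6 h, with 3 libraries in each group. The sources used here do not say whether the PBS group kept IL-3 during those hours.

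IL-4 and IL-13 act through receptors that share the IL-4 receptor alpha chain and activate the transcription factor STAT6. IL-4 drives antibody class switching to IgE and the differentiation of type 2 helper T cells, whereas IL-13 acts mainly on epithelium, smooth muscle and macrophages. IL-5 supports eosinophils, and IL-9 acts on mast cells and other lymphoid and myeloid cells. In T cells, Il4, Il13 and Il5 are known to be controlled together through a control region inside the Rad50 gene. Basophils are known as early producers of IL-4, and IL-3 is their main growth and activating cytokine. The question here was how each gene of this locus stood in PBS-treated BMBAs and in BMBAs stimulated with IL-3.

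The libraries held between 10537540 and 13999287 counts. A count of 0 in a library of this size still allows up to 3 counts, which is 0.233 to 0.296 CPM (a count relative to the depth of its library, after edgeR's trimmed-mean scaling, TMM). Intervals and limits drawn from counts cover counting error only, since no molecular identifiers were used. In the table as a whole, 16675 genes were tested with edgeR's quasi-likelihood F test, and 38.2% of them were called at a Benjamini-Hochberg adjusted p below 0.05. The share called higher with IL-3 was 18%, and the share called lower was 20.2%. The median log2 fold change of all tested genes was -0.0033. With library totals in place of TMM this median moved by -0.16, and 1698 genes were called higher and 5030 lower in place of 3003 and 3372. The labels name the libraries as separate replicates, and the p-values measure the spread between them. In these bulk libraries, fewer cells of a type and less RNA per cell cannot be told apart.

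The locus is compact. In GENCODE M21 (build GRCm38), the 5 linked genes span 157.7 kb of chromosome 11. Kif3a runs from 53567379 to 53601967 on the plus strand, and 1014 bases separate its end from Il4, which lies on the minus strand from 53602982 to 53618669. Il13 follows after 12.7 kb, from 53631324 to 53634702 on the minus strand. The start sites of Il4 and Il13 are 16.0 kb apart. Rad50 lies 14.8 kb beyond Il13, from 53649519 to 53707319 on the minus strand. Il5 lies 13.5 kb beyond Rad50, from 53720794 to 53725106 on the plus strand. Il9 is on chromosome 13 from 56479277 to 56482246 on the minus strand. The Ensembl identifiers of Il4, Il13 and Il5 are ENSMUSG00000000869, ENSMUSG00000020383 and ENSMUSG00000036117. None of the 50-base words in the transcripts of Il4, Il13, Il5 or Rad50 occurred in a transcript of another gene (0%), and the share was 1.06% for Kif3a, so that reads of these genes were hardly open to confusion with others.

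The promoters of the 3 cytokine genes of the locus are shown because Il4 and Il13 changed with IL-3 whereas Il5 stayed near the limit of detection. The sequences come from RefSeq (GRCm38.p6) and cover 250 bases before and 50 bases from the annotated start, written 5′ to 3′ on the strand of the gene. The table had an entry for 5 of the 6 genes and none for Rad50. RefSeq holds a pair of start sites for Il4, and the window nearest to the GENCODE start is printed. Capitals mark 3 motifs searched on both strands. They are GGAAA, the core bound by NFAT factors, GATAA, the core bound by GATA factors, and TTCNNNGAA, the spaced palindrome bound by STAT factors. Where a motif lies on the opposite strand, its reverse complement (TTTCC for GGAAA) is in capitals.
Il4 promoter, chr11:53618616-53618915, minus strand: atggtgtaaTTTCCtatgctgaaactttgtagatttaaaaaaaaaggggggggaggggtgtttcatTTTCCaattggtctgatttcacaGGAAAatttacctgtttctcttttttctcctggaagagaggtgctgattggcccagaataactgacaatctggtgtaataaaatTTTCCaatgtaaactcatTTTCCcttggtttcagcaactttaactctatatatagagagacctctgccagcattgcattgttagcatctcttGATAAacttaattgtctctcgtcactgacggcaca
Il13 promoter, chr11:53634653-53634952, minus strand: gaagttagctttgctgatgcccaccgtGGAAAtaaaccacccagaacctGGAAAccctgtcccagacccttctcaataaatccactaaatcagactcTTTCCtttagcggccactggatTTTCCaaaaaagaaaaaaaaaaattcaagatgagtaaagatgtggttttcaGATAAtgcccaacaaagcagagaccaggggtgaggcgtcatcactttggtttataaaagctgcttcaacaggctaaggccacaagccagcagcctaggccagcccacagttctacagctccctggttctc
Il5 promoter, chr11:53720544-53720843, plus strand: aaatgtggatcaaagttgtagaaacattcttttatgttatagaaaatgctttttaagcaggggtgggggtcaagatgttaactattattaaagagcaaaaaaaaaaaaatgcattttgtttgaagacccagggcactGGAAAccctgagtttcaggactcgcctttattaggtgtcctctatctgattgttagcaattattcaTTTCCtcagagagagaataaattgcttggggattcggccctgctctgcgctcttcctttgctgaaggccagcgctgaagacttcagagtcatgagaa

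The Il4 window held 5 matches of GGAAA, a number reached by 0.759% of 27025 promoters of the same length, and 61.3% of them held at least 1. The Il13 window held 4 matches, a number reached by 2.65% of promoters, and the Il5 window held 2, reached by 27%. A GATAA match began 15 bases after the start in Il4 and at -80 in Il13, and Il5 had none; 25.8% of promoters held this motif. No window of these 3 genes held TTCNNNGAA, which occurred in 8.47% of promoters. For the basal elements, CCAAT had 4 matches in Il4 and none in Il13 or Il5 (37.9% of promoters), and TATAAA had 2 overlapping matches, on opposite strands at -29 and -31, in Il13 and none in the other windows (14.2% of promoters). These matches describe the letters of the windows, and binding was not measured here.

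**Figure D1:**
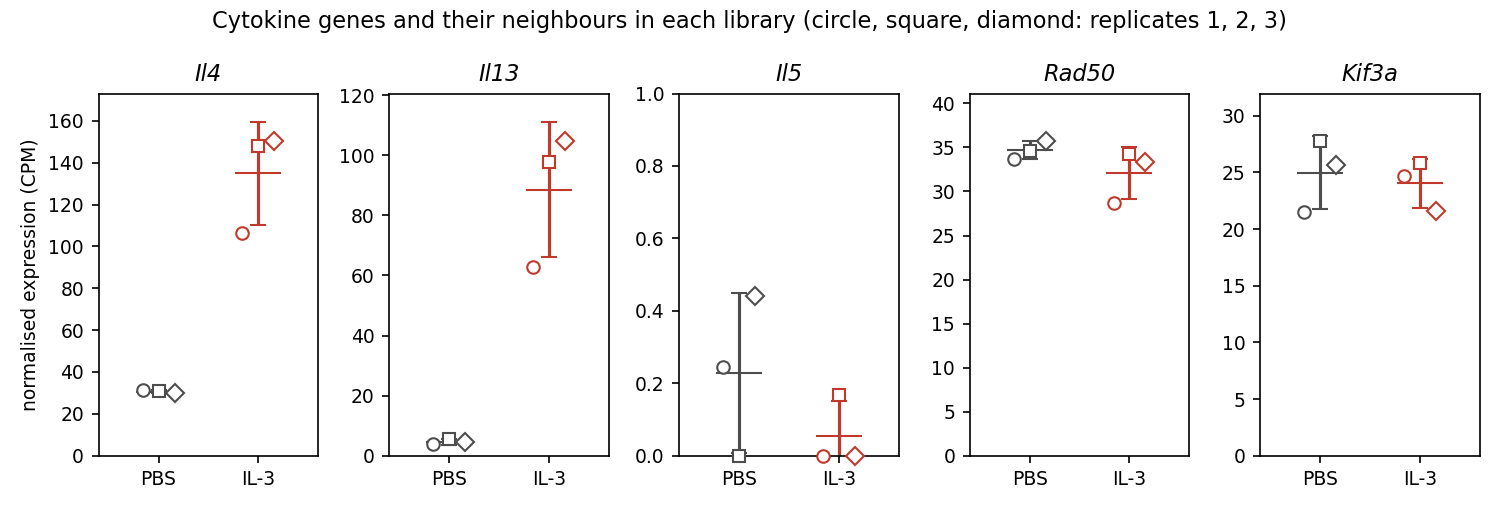
Normalised expression (CPM, linear axes from 0) of Il4, Il13, Il5, Rad50 and Kif3a in each of the 6 libraries, with the group mean (long bar) and SD (error bars, n = 3). All IL-3 libraries lie above all PBS libraries for Il4 (107 to 151 against 29.8 to 31.3) and Il13 (62.9 to 105 against 3.84 to 5.70), and the groups overlap for Il5, Rad50 and Kif3a.

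Il4 and Il13 rose with IL-3, Rad50 and Kif3a were not called, and Il5 did not pass the filter on low counts. Il13 started from a lower level than Il4 and had the larger fold change. Of the 4 genes tested, 2 were thus called higher, beside 18% of all tested genes.

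Il4 was readily detected in PBS-treated BMBAs, with 383, 350 and 338 counts or 31.3, 30.7 and 29.8 CPM in replicates 1, 2 and 3. With IL-3, Il4 had 1080, 1775 and 1941 counts, or 107, 148 and 151 CPM. Every IL-3 library stood above every PBS library, which was so for 23.8% of all tested genes. The mean rose from 30.6 ± 0.783 to 135 ± 24.6 CPM (SD, n = 3). The log2 fold change of Il4 was 2.14 (SE 0.110, 95% interval 1.91 to 2.38), that is 4.42-fold, with an adjusted p of 2.57e-10 by edgeR's quasi-likelihood test. It was the 163rd largest rise among the 16675 genes tested. Per kilobase of mean transcript length, Il4 rose from 54.0 ± 1.38 to 238 ± 43.4 CPM per kb, and its rank by this level among 16217 tested genes with a length moved from 1948 to 441.

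Il13 was close to 0 in PBS-treated BMBAs but not at 0, with 47, 65 and 50 counts or 3.84, 5.70 and 4.40 CPM. With IL-3 there were 637, 1174 and 1352 counts, or 62.9, 97.8 and 105 CPM. The lowest IL-3 library stood far above the highest PBS library. The mean rose from 4.65 ± 0.951 to 88.5 ± 22.5 CPM (SD, n = 3). The log2 fold change of Il13 was 4.26 (SE 0.193, 95% interval 3.85 to 4.67), that is 19.1-fold with an interval of 14.4 to 25.4, and its adjusted p was 5.80e-11 by edgeR's quasi-likelihood test. Only 13 tested genes had a larger log2 fold change. Per kilobase, Il13 rose from 3.86 ± 0.789 to 73.5 ± 18.6 CPM per kb, and its rank by this level moved from 10623 to 1508.

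The proportion between the 2 cytokine transcripts changed. Il13 made up 10.9%, 15.7% and 12.9% of the summed counts of Il4 and Il13 in PBS replicates 1, 2 and 3, with 95% Wilson intervals of 8.32 to 14.2, 12.5 to 19.5 and 9.91 to 16.6. In the IL-3 replicates the share was 37.1%, 39.8% and 41.1%, with intervals of 34.8 to 39.4, 38.1 to 41.6 and 39.4 to 42.7. No interval of one group overlapped an interval of the other. These shares are of counts, which do not correct for the longer Il13 transcript. The count ratio of Il13 to Il4, which does not depend on how libraries are scaled, was 0.124, 0.187 and 0.149 with PBS and 0.590, 0.662 and 0.697 with IL-3. On the log2 scale (0.5 added to each count), the mean ratio was -2.73 ± 0.297 with PBS and -0.63 ± 0.123 with IL-3, a difference of 2.10 or 4.29-fold. The exact two-sided permutation test gave p = 0.1, the smallest value that 3 against 3 libraries allow.

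**Figure D2:**
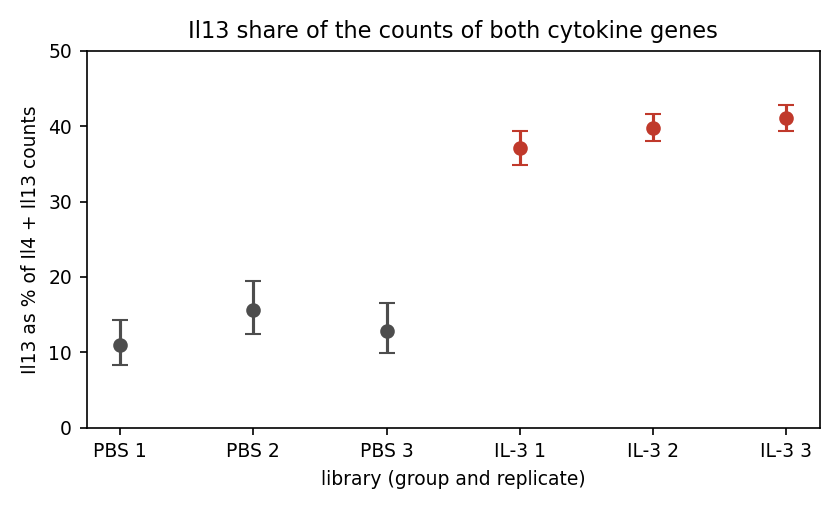
Il13 counts as a percentage of the counts of Il4 and Il13 together (vertical axis, from 0) in each library (horizontal axis), with 95% Wilson intervals for counting error as bars. The PBS libraries lie between 10.9% and 15.7% and the IL-3 libraries between 37.1% and 41.1%.

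The IL-3 libraries were not equally high. IL-3 replicate 1 was the lowest IL-3 library for both cytokines. Its Il4 level was 0.48 lower on the log2 scale than the mean of the other IL-3 libraries, or 28.4% lower. In that library, 824 of all 16675 tested genes lay as low or lower, and 36 of the 3003 called higher. For Il13 the difference was 0.68, or 37.7% lower. As low or lower were 346 of the 16675 tested genes and 8 of the 3003. These are values after TMM scaling, which centres each library, and IL-3 replicate 1 had the smallest total count of the 6 libraries. Rad50 was also lowest in that library, by 0.23, and Kif3a differed by 0.064 in the other direction. Without IL-3 replicate 1, the log2 fold change of Il4 was 2.28 and that of Il13 was 4.44. The coefficient of variation of Il4 was 2.56% in the PBS group and 18.2% in the IL-3 group, whereas that of Il13 was 20.5% and 25.4%.

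Il5 was near the limit of detection in both groups, and PBS replicate 3 stood above the limit of 3 counts. Its counts were 3, 0 and 5 with PBS and 0, 2 and 0 with IL-3. The 0 in PBS replicate 2 allows up to 0.263 CPM, and those in IL-3 replicates 1 and 3 allow up to 0.296 and 0.233 CPM. The pooled level was 0.229 CPM with PBS and 0.0571 CPM with IL-3. Their ratio of 0.250 had an exact 95% interval of 0.0258 to 1.25, which includes 1, so a difference was not detectable at this depth. Il5 did not pass the filter on low counts. When all genes with a count were tested, its log2 fold change was -1.81 with an adjusted p of 0.415. No rise of Il5 beside Il4 and Il13 was seen, and the interval reached no higher than a 1.25-fold rise.

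Rad50, which encodes a subunit of the MRN complex that repairs double-strand breaks in DNA, was expressed at a similar level in all libraries. It had 412, 395 and 406 counts (33.7, 34.6 and 35.8 CPM) with PBS and 291, 411 and 430 counts (28.7, 34.2 and 33.4 CPM) with IL-3. The groups overlapped. The means were 34.7 ± 1.03 and 32.1 ± 2.95 CPM (SD, n = 3), and the log2 fold change was -0.11 (SE 0.0904, 95% interval -0.30 to 0.084) with an adjusted p of 0.382 by edgeR's quasi-likelihood test. With library totals in place of TMM the value was -0.27 and was called, but that scaling moved the median of all genes by -0.16. Kif3a, which encodes a motor subunit of kinesin-2 needed for cilia, had 263, 317 and 291 counts (21.5, 27.8 and 25.6 CPM) with PBS and 250, 310 and 278 counts (24.7, 25.8 and 21.6 CPM) with IL-3. These groups overlapped as well. The log2 fold change of Kif3a was -0.057 (SE 0.115, 95% interval -0.30 to 0.19) with an adjusted p of 0.743. Its sign turned without PBS replicate 2 (0.025) or IL-3 replicate 3 (0.020). For both genes the interval reached down to -0.30, and neither interval overlapped that of Il4 or Il13.

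Set against Rad50 within each library, Il4 had a count ratio of 0.930, 0.886 and 0.833 with PBS and 3.71, 4.31 and 4.51 with IL-3, a 4.72-fold difference. The ratio of Il13 to Rad50 was 0.115, 0.166 and 0.124 with PBS and 2.19, 2.85 and 3.14 with IL-3, a 20.2-fold difference. For each ratio, the groups did not overlap and the exact two-sided permutation test gave p = 0.1, again the smallest possible. In CPM per kb, the order of levels with PBS was Il4 (54.0), Kif3a (15.6), Rad50 (15.0), Il13 (3.86) and Il5 (0.149), where Kif3a and Rad50 did not differ beyond their spread. With IL-3 it was Il4 (238), Il13 (73.5), Kif3a (15.0), Rad50 (13.9) and Il5 (0.0361), where Kif3a and Rad50 again lay within their spread. By the longest transcript in place of the mean length, Kif3a and Rad50 stood at 7.90 and 6.73 with PBS and at 7.60 and 6.23 with IL-3, so their levels relative to each other depend on the length used. Il13 thus passed both of these neighbours, and Il4 stayed the highest of the locus.

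Around the locus, 16 other genes within 500 kb of its ends were tested, of which 3 were called higher, 5 lower and 8 were not called, beside 18% higher and 20.2% lower among all tested genes. Their median log2 fold change was -0.21, and it was -0.10 without PBS replicate 1, -0.37 with library totals in place of TMM and 0.0089 without a filter on low counts. The only other tested gene inside the span, the pseudogene Rps2-ps4 between Il13 and Rad50, had a value of 0.24 and was not called, and 19.5% of its 50-base words occur in other genes. Within 100 kb of the span, Septin8, which encodes a cytoskeletal GTP-binding protein, fell by 0.29 on the log2 scale (adjusted p = 0.0128, edgeR) and was not called without IL-3 replicate 2 (-0.24). Irf1, which encodes an interferon-responsive transcription factor 44.9 kb beyond Il5, fell by 0.45 (adjusted p = 0.00955, edgeR). Shroom1 (0.18) and Gm12216 (-0.26) were not called. The sign turned for Shroom1 without PBS replicate 2 (-0.14) or IL-3 replicate 2 (-0.090), for Gm12216 without PBS replicate 1 (0.26), and for Rps2-ps4 without IL-3 replicate 3 (-0.28). Farther out, Hspa4 (0.22), Aff4 (0.51) and Gm10447 (0.69) were called higher, and Uqcrq (-0.43), Slc22a4 (-1.43) and Pdlim4 (-1.39) lower. Hspa4 was not called with library totals in place of TMM (0.055). Gm10447 stood near the threshold and lost its call under 9 of 14 alternatives, among them leaving out any library other than IL-3 replicate 1. Inside the span and within 100 kb of it, 7 genes other than Il4 and Il13 were tested. By edgeR, 0 of the 7 were called higher, also at an unadjusted p below 0.05 and by the DESeq2 Wald test and limma-voom, which with so few genes is not set apart from the 18% of all genes.

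**Figure D3:**
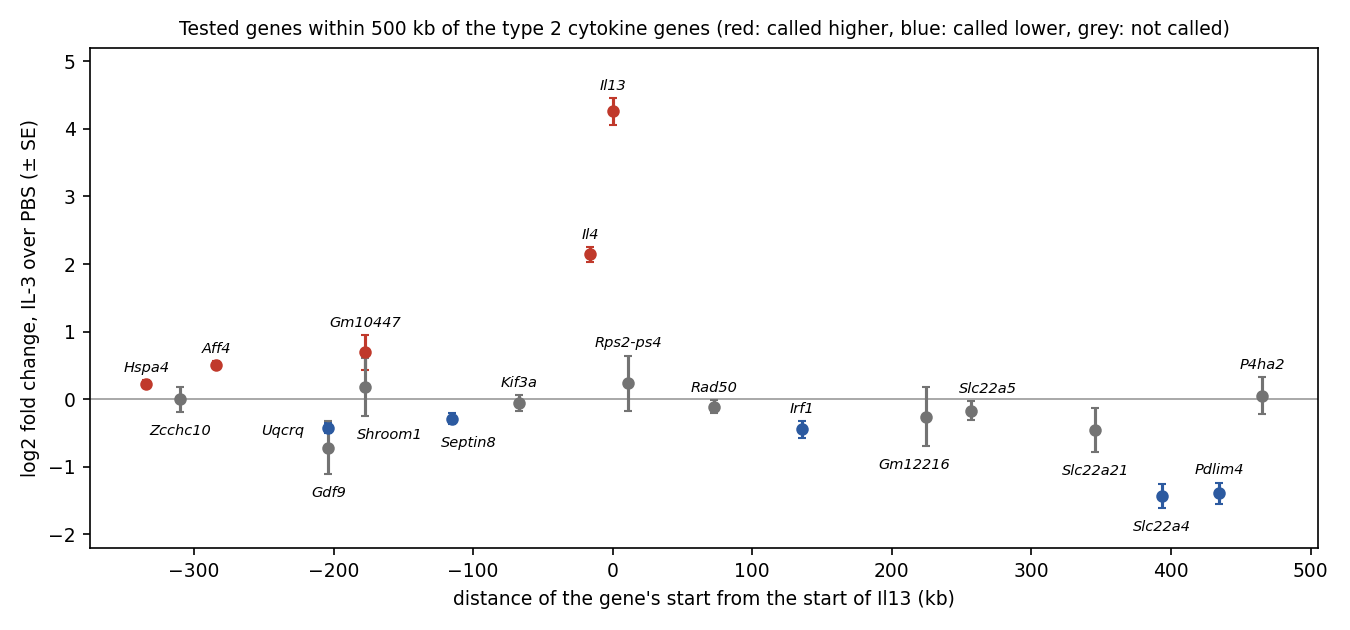
Log2 fold change (IL-3 over PBS, bars are SE) of every tested gene in the region against the distance of its start from that of Il13 in kb. Il4 (2.14) and Il13 (4.26) stand above all other genes, whose values run from -1.43 to 0.69.

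The receptors and signalling proteins of type 2 cytokines were listed as a group of 21 genes. The beta chains Csf2rb and Csf2rb2 were in it, and the IL-3 receptor alpha chain Il3ra was listed with the basophil markers instead. Of the 20 tested, 11 were called higher, 2 lower and 7 were not called, beside 18% higher and 20.2% lower among all tested genes. The median log2 fold change was 0.60 (all tested genes: -0.0033). This list and the lists that follow were chosen with earlier results of these data known. Their shares and medians are therefore descriptive and are not a test against all genes. Feedback inhibitors of cytokine signalling had the smallest adjusted p. Socs1 rose from 49.4 ± 4.76 to 860 ± 25.2 CPM (log2 fold change 4.12), Cish rose from 81.2 ± 6.61 to 1311 ± 53.5 CPM (4.01), and Socs3 rose from 30.7 ± 1.07 to 379 ± 6.28 CPM (3.63). Csf2rb2, the beta chain specific to the mouse IL-3 receptor, rose by 1.66 on the log2 scale, and 18.9% of its 50-base words are shared, mostly with Csf2rb. Il4ra, the IL-4 receptor alpha chain, which is also among the 4 leading genes of the list raised by IL-4 or IL-13, rose from 54.3 ± 2.32 to 167 ± 6.03 CPM (1.62), with an adjusted p of 6.27e-12. The following genes were chosen after their values were seen. Il9r, the receptor of IL-9, was called lower at a low level (3.75 ± 0.521 and 2.29 ± 0.283 CPM, log2 fold change -0.71), but was no longer called without PBS replicate 1 or 2 or IL-3 replicate 1 or 3 (-0.72, -0.60, -0.71 and -0.62), or by the DESeq2 Wald test with all libraries (-0.71). Stat5b was called lower as well (-0.24), and was not called without PBS replicate 2 or 3 or IL-3 replicate 1 (-0.22, -0.21 and -0.20). Il13ra1 (-0.46, adjusted p = 0.0673), Il5ra (0.27, adjusted p = 0.471) and Stat6 (-0.047, adjusted p = 0.605) were not called by edgeR, although Il13ra1 was called without PBS replicate 3 (-0.61). Other receptor genes of the list were called higher. Among them were Il13ra2, at a low level (2.33 ± 0.394 and 4.03 ± 0.0648 CPM, 0.79), and Il2rg (56.8 ± 3.22 and 108 ± 5.10 CPM, 0.93). With library totals in place of TMM, Il13ra1 (-0.62) and Stat6 (-0.21) were called lower.

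Of 27 listed transcription factors known to act on Il4 or Il13 in T cells, mast cells or basophils, or known to be induced in activated cells, 26 were tested. Among these, 15 were called higher, 3 lower and 8 were not called (all tested genes: 18% and 20.2%), with a median log2 fold change of 0.71. Nfil3, a basic leucine zipper factor induced by IL-3 and IL-4, rose from 59.4 ± 4.10 to 277 ± 11.8 CPM (2.22). Bhlhe40 rose from 97.8 ± 5.01 to 332 ± 11.7 CPM (1.76). Rbpj, the DNA-binding partner of Notch, had a log2 fold change of 1.28, with 10.3% of its 50-base words shared with other genes, and Runx1 had one of 0.92. The following factors were chosen after their values were seen. Gata2, the GATA factor that basophils depend on, rose from 799 ± 67.4 to 1518 ± 66.2 CPM (0.93), and Nfatc2 had a log2 fold change of 0.97. Gata3, the GATA factor of type 2 T cells, stood at 0.972 ± 0.00894 and 0.881 ± 0.392 CPM and was not called (-0.13, and 0.084 without IL-3 replicate 3). The 3 factors called lower were Cebpa (-0.71), Maf (-1.04), which activates Il4 in T cells, and Fos (-0.96).

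A further list held other cytokines and chemokines of type 2 responses or of basophils. Of 21 listed, 20 had a row and 13 were tested. Among the 13, 11 were called higher, none lower and 2 were not called, against 18% higher and 20.2% lower among all tested genes. Some of the 11 passed the filter on low counts only through their IL-3 libraries, so the filter itself favoured their call. Among them, named after their values were seen, were Ccl1 (0, 0 and 1 counts with PBS, 35, 40 and 30 with IL-3) and Ccl24 (2, 2 and 5, and 121, 79 and 90). The 2 shares are thus not a test of the list. The 2 genes not called, chosen after their values were seen, were Ccl17 (1.20) and Ccl22 (1.01). Ccl17 was called without PBS replicate 3 (1.73) or IL-3 replicate 3 (1.64), without a filter (1.21), and by the DESeq2 Wald test and the edgeR exact test (1.22 and 1.21). Ccl22 was called without PBS replicate 2 (2.99) or without a filter (1.02) and turned to -0.28 without IL-3 replicate 1. The median log2 fold change was 2.76, and 1.77 when no filter on low counts was used. Il6 rose from 87.3 ± 7.10 to 1346 ± 124 CPM (3.95), Osm from 126 ± 6.39 to 1631 ± 149 CPM (3.69), Hgf from 119 ± 3.84 to 898 ± 25.8 CPM (2.92) and Ccl4, a chemokine, from 199 ± 13.4 to 1050 ± 90.1 CPM. Il3 and Il33 had no count in any library, so that the limit per library of 0.233 to 0.296 CPM applies to them. Like Il5, the cytokine genes Csf2, Il10, Il31 and Tslp did not pass the filter on low counts.

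**Figure D4:**
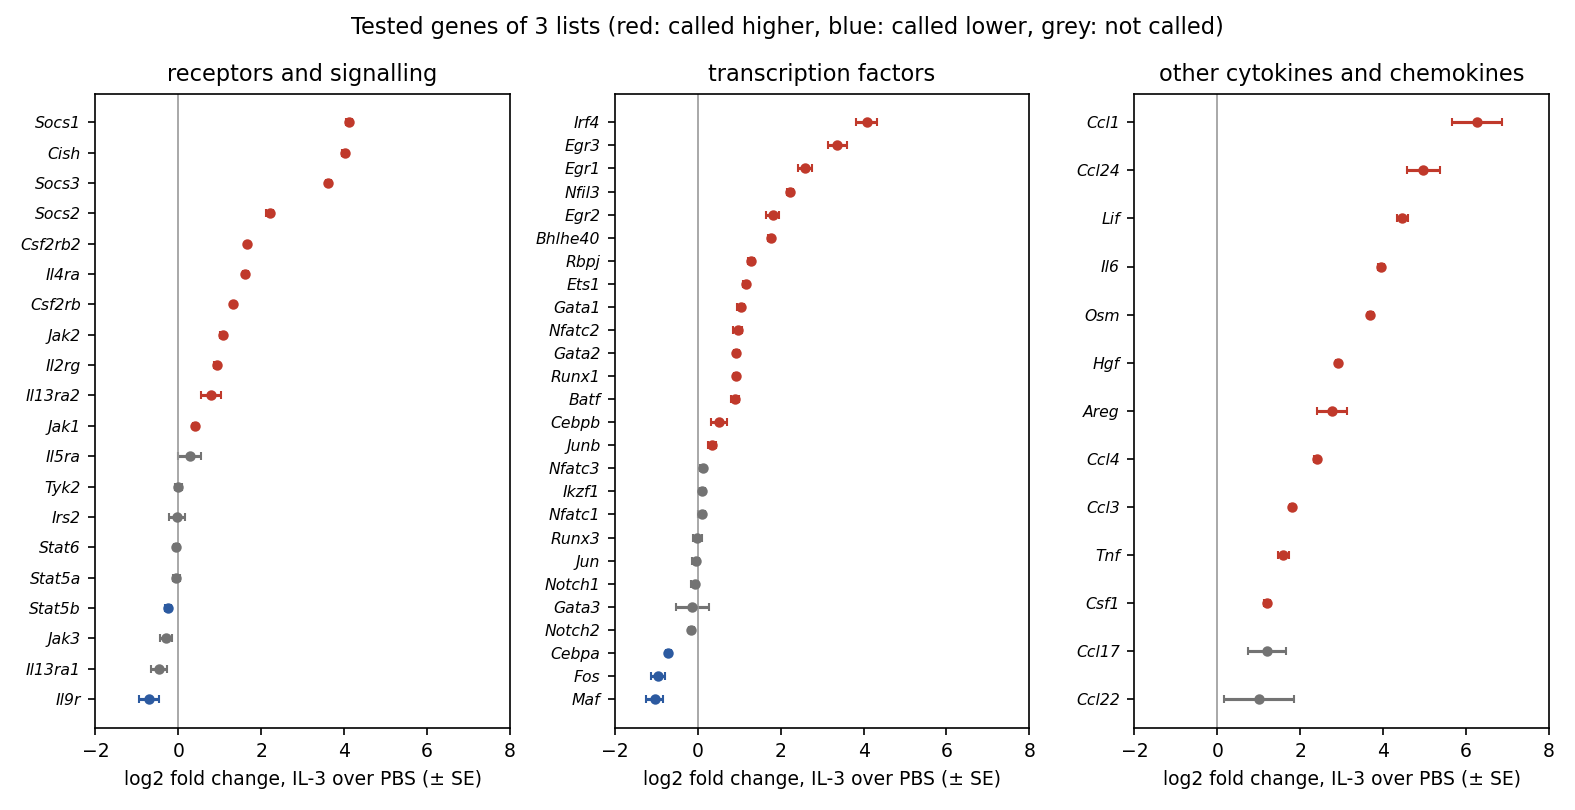
Log2 fold change (IL-3 over PBS, horizontal axis, bars are SE) of each tested gene of 3 lists. Called genes lie mostly to the right of 0, with 11 of 20 receptors and signalling genes, 15 of 26 transcription factors and 11 of 13 cytokines called higher. The lists were chosen with earlier results of these data known, so these shares are descriptive only.

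Genes that IL-4 or IL-13 are known to raise in macrophages or other cells were also listed. Of 20 such genes, 19 were tested, and 9 were called higher, 4 lower and 6 were not called (all tested genes: 18% higher and 20.2% lower, so the share called lower is near that of all genes). The median log2 fold change was 1.01 and rested on single libraries, since leaving out PBS replicate 3 gave 0.66 and leaving out IL-3 replicate 3 gave 1.54. The list overlaps with those above in 8 genes. The 4 with the smallest adjusted p were Socs1, Cish, Il4ra and Irf4, and each of these is in another list too. Irf4 rose from 0.802 ± 0.229 to 13.7 ± 2.82 CPM (4.08). Of the 11 tested genes found in no other list, 3 were called higher and 4 lower. All of these are named here after their values were seen. The 3 called higher were Myc (2.67), Arg1 (1.42) and Pdcd1lg2 (0.69). The 4 called lower were Alox15 (-1.25), Pparg (-0.64), Cd36 (-0.55) and Chil3 (-0.27). Pparg was not called without PBS replicate 1 (-0.50) or IL-3 replicate 2 (-0.54). Of 9 monocyte and macrophage markers, 7 were called lower and 2 higher (the 2, chosen after their values were seen, were Adgre1 at 0.53 and Ly6c2 at 1.29). Their summed level, most of which was Lyz2, was 13798 to 14958 CPM with PBS and 7157 to 7869 CPM with IL-3. Its part in the values of the 4 genes called lower was not tested.

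Across the 6 libraries, the genes with the profile most like that of Il4 were C5ar2, Txk, Gm4070, Ccl9 and Gvin1. Likeness was the root mean square difference of log2 CPM, each gene taken relative to its own PBS mean, among tested genes reaching 10 CPM in either group. The difference was 0.095 for C5ar2, the second receptor of the complement fragment C5a, and 0.110 for Txk, a kinase of the Tec family. Gm4070 (0.115) and Gvin1 (0.133) share 97.8% and 99.2% of their 50-base words with other genes, chiefly with each other, and cannot be separated. Ccl9, a chemokine, differed by 0.129. For Il13 the nearest genes were Gm13053 (0.194), Lif (0.245), a cytokine of the IL-6 family, Asb2 (0.262), Socs1 (0.268) and Epcam (0.303). Lif rose from 3.75 ± 0.224 to 83.0 ± 11.0 CPM (4.47), from nearly the same PBS level as Il13. The profiles of Il4 and Il13 differed from each other by 1.47. By Pearson's r in place of this difference, 0 of the 5 nearest genes were shared for either cytokine, and 1113 genes for Il4 and 1148 for Il13 had an r over 0.95, so the names hold for this measure of likeness. All points share the same 6 libraries and the same pair of groups.

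**Figure D5:**
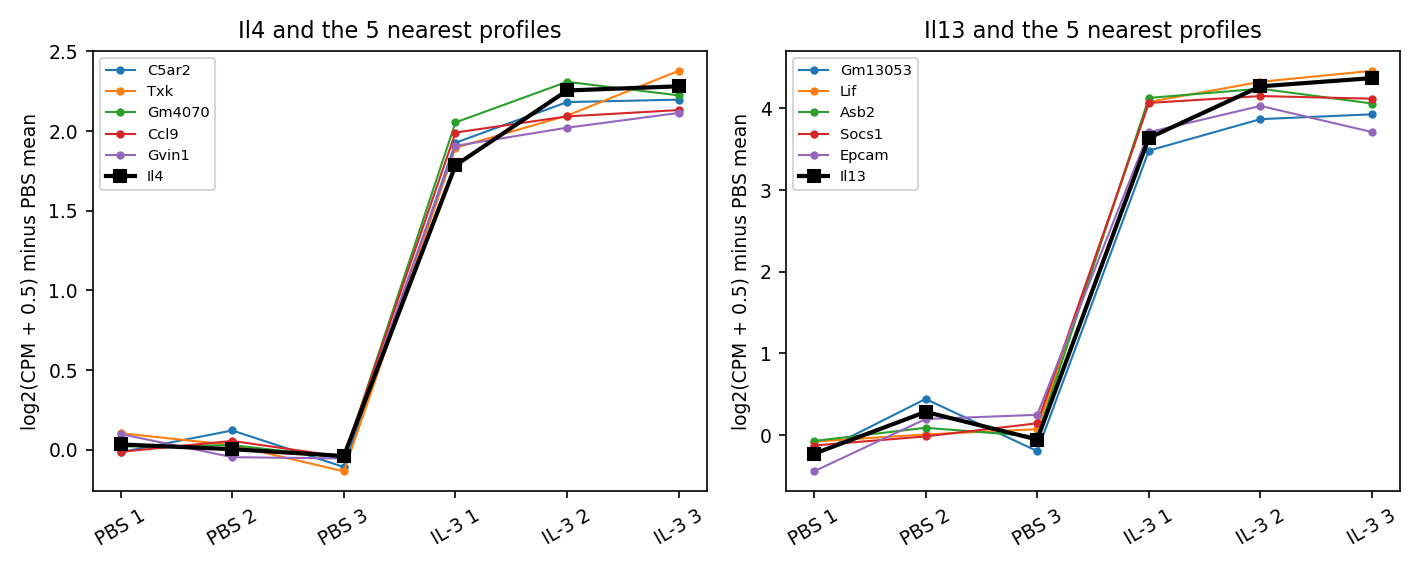
Log2(CPM + 0.5) minus the PBS mean (vertical axis) in each library (horizontal axis) for Il4 (left, black) and Il13 (right, black) with their 5 nearest genes. IL-3 replicate 1 is the lowest IL-3 point of Il4 and Il13, and the Il4 group of lines rises by about 2 and the Il13 group by about 4.

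Markers of the cells that could hold Il4 and Il13 transcripts were listed beside them, and their counts are to be read against the 18% called higher and 20.2% called lower among all tested genes. The 8 basophil markers were all tested, and 6 were called higher and 1 lower; their summed level was 10250 to 11444 CPM with PBS and 15297 to 15494 CPM with IL-3. Mcpt8, a basophil protease, rose from 3066 ± 171 to 5895 ± 178 CPM (log2 fold change 0.94). The marker called lower was Fcer1a (-0.50), the alpha chain of the IgE receptor, and the protease Prss34 was not called (0.012). Of 8 mast cell markers 6 were tested and 4 were called higher, and the summed level was 841 to 945 CPM with PBS and 1438 to 1572 CPM with IL-3. The 4 were Cma1 (1.31), Tpsb2 (1.04), Kit (0.58) and Cpa3 (0.53), and Tpsab1 (-0.019) and Mcpt4 (-0.58) were not called. The part of basophil or mast cell abundance in the rise of Il4 and Il13 was not tested.

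T cell markers were low. Of 8 listed, 4 were tested and none was called by edgeR (0 at an unadjusted p below 0.05, and 0 by the DESeq2 Wald test and limma-voom), and the summed level was 11.9 to 21.2 CPM with PBS and 8.89 to 16.7 CPM with IL-3. The largest part of this sum was Cd28, at 9.34 ± 2.73 CPM with PBS and 6.78 ± 5.19 CPM with IL-3. Of the chains of the T cell receptor complex, Cd3e had at most 0.881 CPM in any library. Cd3d stood at 2.03 ± 0.548 and 2.45 ± 0.524 CPM, and Cd3g at 1.45 ± 1.49 and 0.984 ± 0.361 CPM. Of 8 markers of type 2 innate lymphoid cells, 7 were tested, none was higher and 2 were lower (Il7r at -1.22 and Rora at -0.55). Their summed level was 301 to 322 CPM with PBS and 146 to 165 CPM with IL-3. The largest part of this sum was Il7r, with a mean of 244 CPM with PBS and 105 CPM with IL-3. Gata3, also in this list, had means of 0.972 and 0.881 CPM. For eosinophil markers, 1 of 6 was called higher and 3 lower (157 to 175 CPM with PBS, 99.0 to 139 CPM with IL-3). The largest part of this sum with PBS was Ear2, with a mean of 134 CPM. With IL-3, Ear2 had a mean of 51.3 CPM and Prg2, the marker called higher, one of 49.8 CPM. Epx had means of 0.230 CPM with PBS and 0.445 CPM with IL-3. For neutrophil markers, 3 of 7 were higher and 1 lower (122 to 158 CPM with PBS, 194 to 250 CPM with IL-3). Nkg7 was the 1 NK cell marker tested and was called higher, and Gzma and Klra8 were at 0. RNA of monocyte and macrophage markers, given above, was present in both groups after the bead enrichment.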

How the data were processed

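Bulk RNA-seq data of 6 BMBA libraries (3 PBS, 3 IL-3) were used. Per the study's methods, poly(A) RNA was captured and reverse-transcribed on oligo-dT beads, amplified as whole-transcriptome cDNA (TAS-Seq) and fragmented. The authors trimmed reads with Cutadapt 3.4 (per the submitters' processing notes), mapped them with Bowtie2 to reference RNA of GRCm38 on 1 strand, and deposited raw counts per gene symbol. The labels list GRCm39 as the build, and the methods were followed here. The labels name a column kit for RNA and the methods name direct lysis. The deposited counts contain no molecular identifiers, so PCR copies were counted as reads. No per-sample column was unused.

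Counts were fitted with edgeR 4.0.16 in R 4.3.3 (filterByExpr, TMM, quasi-likelihood F test, group as the only term, two-sided), with Benjamini-Hochberg adjustment over 16675 genes. Genes with an adjusted p under 0.05 were called. The SE was derived from F, and values are mean ± SD of CPM. Lengths and coordinates came from GENCODE M21, in which 96.12% of symbols were found, and promoters from RefSeq. The pipeline was tested on simulated counts. The genes and lists were chosen with earlier results of these data known. Genes named from a list were its 4 members with the smallest adjusted p, and any member without a count. Locus genes were named if tested within 100 kb or called, and nearest profiles were the first 5. All other names are said to have been chosen after their values were seen, except where markers are given as examples.

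Alternatives were DESeq2 1.42.0 size factors and Wald test, library totals, no filter or a filter at 1 CPM in 3 libraries, limma 3.58.1 (voom), the edgeR exact test, a replicate block, leaving out each library, a pseudocount of 2, the longest transcript and Pearson's r for likeness.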

Additional observations from a re-analysis of the deposited data

How the results depend on the processing

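Il4 and Il13 kept their direction and their call under all 14 alternatives. The log2 fold change of Il4 ranged from 1.98 to 2.28 (2.06 to 2.28 when a library was left out), with adjusted p from 2.17e-166 to 1.68e-08 over all alternatives, and that of Il13 from 4.09 to 4.44 (4.12 to 4.44 when a library was left out), with adjusted p from 3.70e-302 to 3.15e-08. With library totals without TMM, Rad50 was called at -0.27 (adjusted p = 0.0258, range over alternatives 0.0258 to 0.784), and 1698 genes were called higher; this scaling moved the median of all genes by -0.16. When a library was left out, Kif3a ranged from -0.16 to 0.025, and it turned to 0.025 without PBS replicate 2 and to 0.020 without IL-3 replicate 3. The median of the other locus genes turned to 0.0089 when no filter was used. The log2 difference of the Il13 to Il4 ratio ranged from 1.96 to 2.25, that of Il4 to Rad50 from 2.18 to 2.32 and that of Il13 to Rad50 from 4.23 to 4.49.

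The deviations of same-numbered libraries of the groups had correlations of -0.0087, -0.016 and -0.022 for replicates 1, 2 and 3. Whether same-numbered libraries came from the same culture is not stated in the sources used here and was not tested. With a replicate block, Il4 was at 2.13, Il13 at 4.24, Rad50 at -0.11 and Kif3a at -0.056, and 2842 genes were called higher and 3247 lower. The receptor and signalling list had between 0 and 5 genes called lower over the alternatives, and the median of the genes raised by IL-4 or IL-13 ranged from 0.66 to 1.54. Of 57 genes outside the members that were compared over the alternatives, 43 kept call and sign. Some genes named above were not among these 57. Per longest transcript, Rad50 and Kif3a were at 6.73 and 7.90 CPM per kb with PBS. Ranked by Pearson's r, none (0) of the 5 nearest genes was the same for Il4 or Il13, and 1113 and 1148 genes had an r over 0.95. The cause was not tested.

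With 3 libraries a group, an exact test of a single value cannot go below p = 0.1. At these depths, Il5 did not pass the filter on low counts. Groups of 3 were too small for a check of outlying libraries.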
